A study of Mus musculus with 24 samples.

Results

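The genes of the GABA and glycine inhibitory synapse were compared in the hippocampus of mice that lack Egr1 in cells of the neural lineage and in 3 kinds of control mice. The set holds 27 of the 36605 genes in the count table. It was chosen by gene function, with earlier results of these data known. Hippocampal polyA RNA of 24 mice was sequenced, with 3 females and 3 males of each of 4 genotypes. The wild type (Egr1wtNesCre-) carried neither allele. The floxed control (Egr1fNesCre-) carried Egr1 alleles flanked by loxP sites (floxP). The Cre control (Egr1wtNesCre+) carried a Cre transgene driven by the promoter of Nestin, a gene of neural precursor cells. The knockout (Egr1fNesCre+, called Egr1cKO) carried both, so that Egr1 is deleted in neurons and glia that descend from these precursors. The floxed allele was made in C57BL/6N mice and the Cre line is a congenic B6 line. The mice with floxP and the mice without it carry separate runs of mouse numbers, so floxP and the series of mice cannot be told apart. The mice were adult, with no age in weeks given in the sources used here, and the labels name no treatment.

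Egr1 was at 4.86 to 10.2 CPM (counts scaled to the size of the library, with TMM factors) in the 6 Egr1cKO mice and at 47.7 to 149 CPM in the other 18, with no overlap. Totals ranged from 18025168 to 34955004 counts per mouse. The labels call the cell type endocrine, yet the 7 pituitary markers measured summed to at most 3.84 CPM in any mouse, while 8 markers of hippocampal excitatory neurons summed to at least 1878 CPM. A pair of libraries stood apart. Male Egr1cKO replicate 3 had a summed level of 129 CPM over 6 striatal markers, against 42.8 to 97.4 CPM in the others, and a low level of Prox1, a dentate gyrus marker, at 58.2 CPM. Female Cre control replicate 1 had a sum of 2036 CPM over 6 choroid plexus markers and Prox1 at 78.5 CPM. Another 4 mice, of the floxed control, Cre control and Egr1cKO genotypes, had choroid plexus sums of 323 to 1129 CPM.

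GABA is the main inhibitory transmitter of the adult brain. It is made from glutamate by the decarboxylases Gad1 and Gad2, loaded into vesicles by Slc32a1, taken up into astrocytes by Slc6a11 and broken down by Abat. It opens GABA-A receptors, chloride channels built from alpha, beta and gamma or delta subunits, and activates GABA-B receptors, which act through G proteins. The sign of the chloride current is set by the transporters Slc12a5, which extrudes chloride, and Slc12a2, which brings it in. Glycine receptors are chloride channels of the same superfamily, and gephyrin (Gphn) holds both kinds of channel at the synapse. EGR1 is a zinc finger transcription factor that binds GC-rich DNA.

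Promoter sequence is shown to place the members beside the letters that EGR1 is known to bind. RefSeq windows of 300 bases around the start site (GRCm38.p6) were found for 24 members. They were searched on both strands for GCGTGGGCG, the EGR1 consensus, and GCGGGGGCG, a variant that differs from it at a single base. The consensus was in the windows of 0 of the 24 members and of 0.707% of 27025 genes. The variant was in 4 of the 24, which is 16.7%, and in 3.31% of all genes. The members' windows were richer in G and C, with a median of 61.3% against 52.7% over all windows, and no test was made. The 4 are Gad1, Glra3, Iqsec3, a guanine exchange factor of inhibitory synapses, and Clptm1, which holds GABA-A receptors in the secretory pathway. The lines below give them 5′ to 3′ on the strand of the gene, with the variant or its reverse complement in capitals.
Gad1, chr2:70562112-70562141, + strand: ctccccactcCGCCCCCGCctcccccaagc
Glra3, chr8:55940328-55940427, + strand: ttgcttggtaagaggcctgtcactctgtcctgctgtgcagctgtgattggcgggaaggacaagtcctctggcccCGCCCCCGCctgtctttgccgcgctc
Iqsec3, chr6:121473772-121473871, - strand: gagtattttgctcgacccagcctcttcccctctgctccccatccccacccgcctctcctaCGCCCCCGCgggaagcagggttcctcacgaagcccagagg
Clptm1, chr7:19665021-19665120, - strand: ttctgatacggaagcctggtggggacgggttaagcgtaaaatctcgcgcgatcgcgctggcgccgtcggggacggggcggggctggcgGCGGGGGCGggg
The match begins 7 bases before the start site in Gad1, 16 in Glra3, 133 in Iqsec3 and 2 in Clptm1. In the GENCODE annotation the Gad1 stretch is exonic in all its 30 bases, the Clptm1 stretch in 13 of 100 and the other pair in none. Gabrb2, whose level differed most widely among the GABA-A members, is shown for contrast. Its 3 windows hold neither motif, and the stretch lies within the bounds of the gene in GENCODE, outside its exons.
Gabrb2, chr11:42420340-42420439, + strand: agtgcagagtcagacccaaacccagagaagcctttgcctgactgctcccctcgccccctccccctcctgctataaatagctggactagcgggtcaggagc
A match of letters is a description of the window and does not show binding.

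All 27 members were detected in every mouse and passed the filter on low counts in each comparison. Levels between genes were compared as CPM per kb of exon, as mean ± SD over 24 mice. Gabbr1 and Slc12a5 were highest, at 93.9 ± 5.13 and 81.1 ± 6.92 CPM per kb. Gabbr2, the partner without which Gabbr1 does not signal at the cell surface, was at 48.3 ± 4.90 CPM per kb. Among the GABA-A subunits listed, Gabra5, the subunit of extrasynaptic receptors of pyramidal cells, was highest at 58.6 ± 7.50 CPM per kb. Gabra4, Gabrb1, Gabra2, Gabrb2 and Gabra3 lay close together, from 18.9 down to 15.3 CPM per kb, and their ranges over mice overlapped. Gabrd, the delta subunit of tonic receptors of granule cells, was at 9.55 ± 1.86 CPM per kb, and Gabrg1 and Gabrg3 were at 2.78 ± 0.529 and 2.11 ± 0.335 CPM per kb.

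Gad1 was above Gad2, at 34.7 ± 2.39 and 22.6 ± 3.59 CPM per kb, and Slc32a1 was at 18.5 ± 1.96 CPM per kb. Reads of Slc32a1 may include some of an antisense gene that shares 24.9% of its exon bases, since the libraries were not stranded, and 4 other members share between 0.33% and 4.98% of theirs with a gene on the opposite strand. The uptake carrier Slc6a11 and the transaminase Abat were at 32.4 ± 4.24 and 30.01 ± 3.37 CPM per kb. Of the scaffold and adhesion genes, Gabarap, which binds receptors in transit, and Nlgn2, the neuroligin of inhibitory synapses, were near 52 to 53 CPM per kb. Gphn was at 19.4 ± 1.49 CPM per kb. Slc12a2 was at 8.28 ± 1.11 CPM per kb, far below Slc12a5. Glrb, the beta subunit that binds gephyrin, was at 39.6 ± 2.68 CPM per kb, while the alpha subunits Glra2 and Glra3 were at 2.76 ± 0.526 and 0.543 ± 0.365 CPM per kb.

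**Figure D1:**
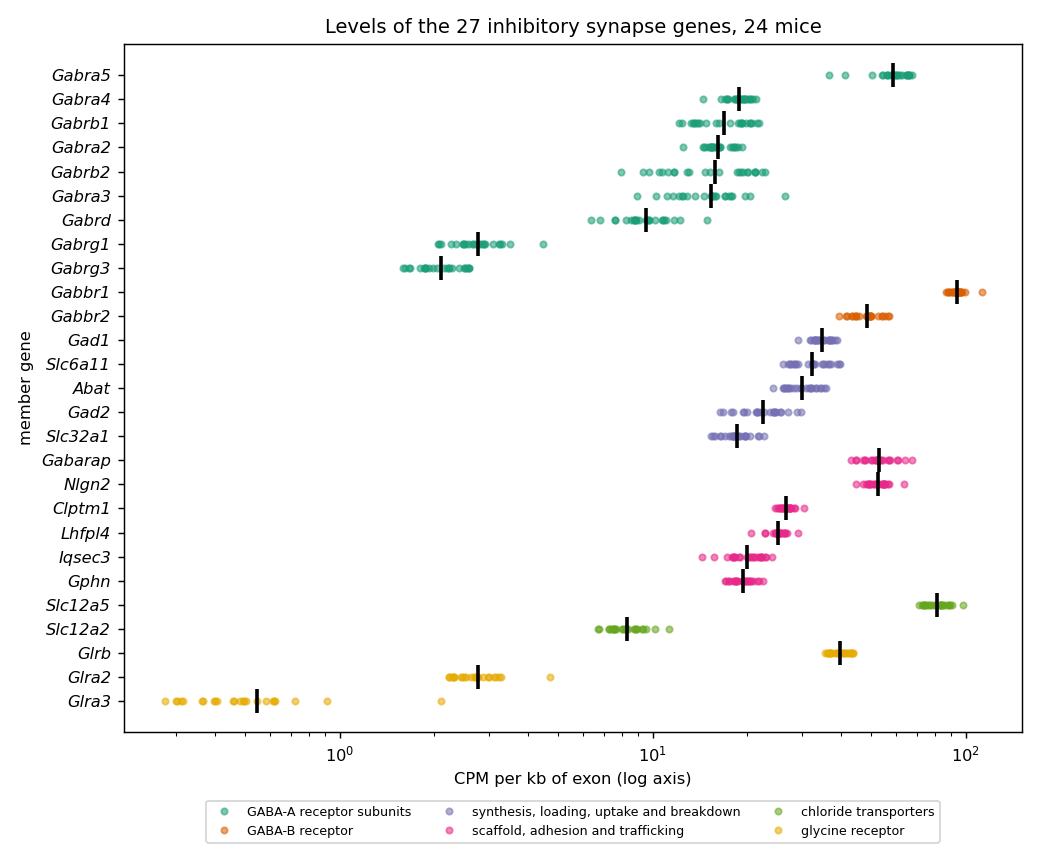
Level of each member in CPM per kb of exon on a log axis, with a point for each of the 24 mice and a black tick at the mean; colours give the role. Gabbr1 (93.9 CPM per kb) and Slc12a5 (81.1 CPM per kb) sit highest, and Glra3 (0.543 CPM per kb) lowest with the widest spread.

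The spread between mice, as the coefficient of variation over 24 mice, was smallest in Clptm1 (4.85%), Gabbr1 (5.47%), Lhfpl4 (6.35%), Glrb (6.76%) and Gad1 (6.89%). It was widest in Glra3 (67.2%), Gabrb2 (30.2%) and Gabra3 (24.7%). Glra3 was at 19.4 CPM in male Egr1cKO replicate 3 and at 2.54 to 8.40 CPM in the other 23 mice. Gabra3 was also highest in that mouse, at 104 CPM against 35.1 to 80.1 CPM in the rest.

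Of the comparisons, the first asked whether the loss of Egr1 changed these genes, and set the 6 Egr1cKO mice against the 18 others. Differences were tested with edgeR's quasi-likelihood test over all genes that passed the filter, with Benjamini-Hochberg adjustment. Calls needed a fold change of 1.2 or more beside an adjusted p no higher than 0.05. The interaction and the test of the sex difference in Egr1cKO mice, given further on, had no fold change minimum. In the first comparison none of the 27 members was called, that is 0 of 27, against 0.00543% of all 18433 genes, which is Egr1 alone. DESeq2 also called 0 members. At an unadjusted p under 0.05 there were 12 of the 27, 10 of them higher and 2 lower in Egr1cKO mice, beside 15.1% of all genes. The median log2 fold change (log2FC, Egr1cKO minus controls) was 0.11 over the members and -0.01 over all genes. It was positive in 24 of the members and in 48.2% of all genes. By role these were 8 of 9 GABA-A subunits, 2 of 2 GABA-B subunits, 5 of 5 genes of synthesis, loading, uptake and breakdown, 5 of 6 scaffold, adhesion and trafficking genes, 2 of 2 chloride transporters and 2 of 3 glycine receptor genes. The exceptions were Gabrd, Gabarap and Glrb. Markers of cell types also differed at an unadjusted p under 0.05 in this comparison. Of 11 interneuron markers 3 were higher and 1 was lower in Egr1cKO mice (median log2FC 0.13 over the 11). Of 5 astrocyte markers 2 were higher (median 0.16). Of 4 oligodendrocyte markers 3 were lower in Egr1cKO mice (median log2FC -0.24), while 3 of 4 microglial markers (median 0.20) and 2 of 4 endothelial markers (median 0.28) were higher. The summed oligodendrocyte level was 1469 to 2218 CPM in Egr1cKO mice and 1801 to 2919 CPM in the others, the microglial sum 201 to 233 against 146 to 213 CPM, and the endothelial sum 96.7 to 114 against 48.4 to 124 CPM. These ranges overlapped, and their part in the members' values was not tested. These direction counts changed with the length index of the libraries, described further on.

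Against the floxed control, the mice of the same series without Cre, 0 of 27 were called by edgeR and 0 by DESeq2. The background was 0.0232% of 17265 genes. At an unadjusted p under 0.05 there were 10 members, 8 higher and 2 lower, beside 16.2% of all genes. Against the Cre control, 0 of 27 were called by either tool, with a background of 0.00585% of 17080 genes. There 10 members, 9 higher and 1 lower, had an unadjusted p under 0.05, beside 12.3% of all genes. These comparisons share the Egr1cKO mice, so their like direction is not independent.

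Gabrb2, a beta subunit of GABA-A receptors, had the lowest p of the members against the Cre control and the lowest p in the interaction described below. In CPM it was at 136, 135 and 146 in female and 142, 118 and 81.7 in male Egr1cKO mice. In floxed controls it was at 123, 59.4 and 68.2 in females and 120, 71.3 and 50.3 in males. In Cre controls it was at 104, 74.3 and 74.4 in females and 61.9, 135 and 66.9 in males. In the wild type it was at 97.2, 122 and 128 in females and 93.6, 83.4 and 127 in males. Thus 5 of the 6 Egr1cKO mice were at 118 CPM or more, a level that 1 to 3 mice of each control genotype also reached, so the groups overlapped. Gabrb2 had a log2FC of 0.61 (SE 0.20) against the floxed control (adjusted p = 0.255, edgeR) and of 0.55 (SE 0.18) against the Cre control (adjusted p = 0.354, edgeR). The values depended on single control mice. Without male floxed control replicate 1 the first was 0.80 and was called (edgeR adjusted p = 0.0413), and without male Cre control replicate 2 the second was 0.77 and was called (edgeR adjusted p = 0.0100). Leaving out these mice raised the calls over all genes too, from 4 to 304 and from 1 to 794.

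The other GABA-A members differed less or varied more. Gabrb1, another beta subunit, had a mean of 266 ± 42.6 CPM (SD, n = 6) in Egr1cKO mice, 215 ± 44.0 CPM in floxed controls and 208 ± 43.3 CPM in Cre controls, and male Egr1cKO replicate 3 was its lowest knockout mouse at 186 CPM. Gabrd was the only GABA-A member with a negative log2FC in these comparisons. Its levels were 18.2, 19.5 and 21.9 CPM in female and 25.0, 27.4 and 30.8 CPM in male Egr1cKO mice, and 25.1, 25.9 and 23.7 CPM in female and 28.0, 33.7 and 35.2 CPM in male floxed controls. Over both sexes the levels in these genotypes overlapped. The log2FC was -0.27 (SE 0.08, edgeR adjusted p = 0.253). Prox1, which marks granule cells, ran from 58.2 to 185 CPM in Egr1cKO mice and overlapped the floxed controls, and its part in the level of Gabrd was not tested. In bulk tissue, fewer cells of a type and less RNA per cell cannot be told apart. Gabra2 and Gabra4 had means of 125 ± 7.69 and 116 ± 6.37 CPM in Egr1cKO mice and 126 ± 12.7 and 112 ± 6.29 CPM in floxed controls. Gabra3, an alpha subunit of monoaminergic and reticular neurons, was at 35.1 to 104 CPM in Egr1cKO mice, which spans the range of all other mice. Gabra5 was at 174 ± 26.6 CPM in Egr1cKO mice and 167 ± 15.6 CPM in floxed controls. The minor gamma subunits Gabrg1 and Gabrg3 were at 24.9 ± 6.28 and 27.8 ± 3.38 CPM, against 20.7 ± 2.60 and 23.2 ± 3.08 CPM.

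**Figure D2:**
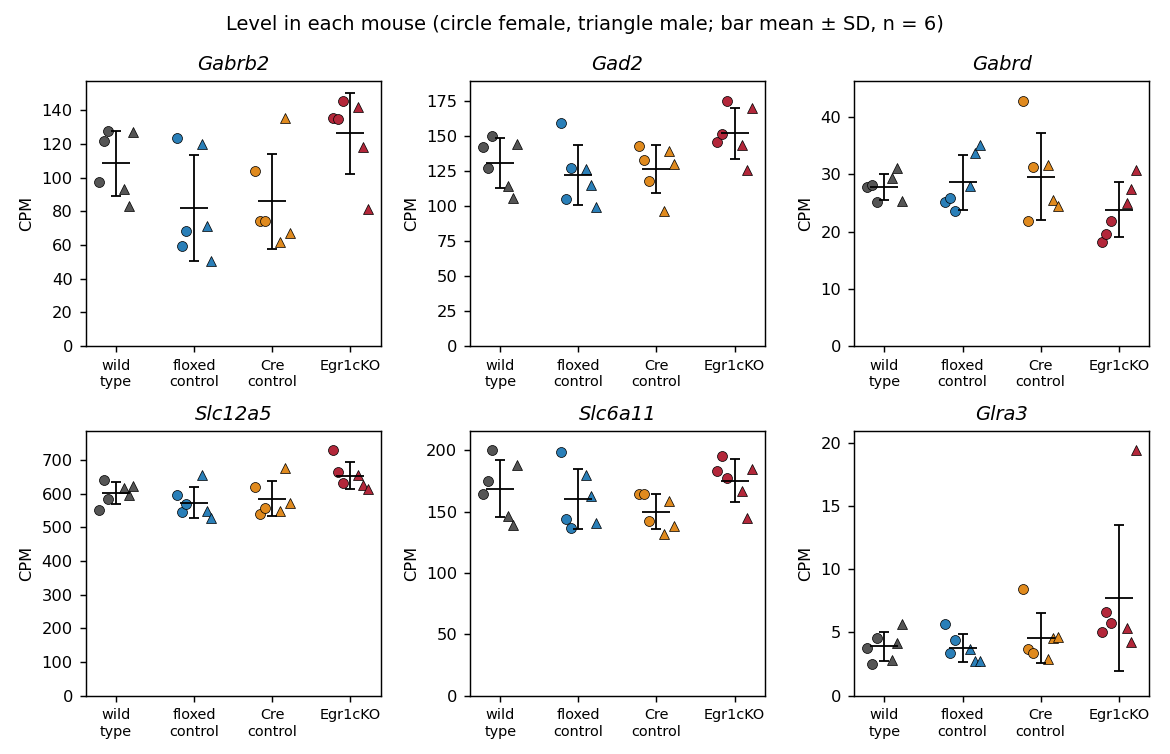
CPM of 6 members in each mouse, by genotype, with circles for females, triangles for males and the mean ± SD of the 6 mice in black. Gabrb2 spans 50.3 to 123 CPM in floxed controls and 61.9 to 135 CPM in Cre controls, and the high Glra3 mean of Egr1cKO mice rests on the mouse at 19.4 CPM.

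For synthesis, Gad2, the decarboxylase found largely at nerve terminals, was at 146, 151 and 175 CPM in female and 143, 126 and 170 CPM in male Egr1cKO mice. The lowest, median and highest levels were 99.0, 121 and 159 CPM in floxed controls and 96.4, 132 and 143 CPM in Cre controls. Egr1cKO mice were mostly above the median of both, and the ranges overlapped. The log2FC was 0.27 (SE 0.09) against the 18 other mice and 0.32 (SE 0.10) against the floxed control, with edgeR adjusted p of 0.204 and 0.253. Gad1, which makes most of the basal GABA, was at 275 ± 14.7 CPM in Egr1cKO mice and at 270 ± 17.3 CPM in floxed controls. Slc32a1 was at 53.6 ± 7.36 and 52.8 ± 4.10 CPM. Slc6a11, an astrocytic carrier, was at 175 ± 17.6 CPM in Egr1cKO mice and 150 ± 14.4 CPM in Cre controls, a log2FC of 0.22 (SE 0.08, edgeR adjusted p = 0.354). Abat had a log2FC of 0.20 (SE 0.07, edgeR adjusted p = 0.358) in that comparison. A sum of 5 astrocyte markers was at a median of 1077 CPM in Egr1cKO mice, 1034 CPM in Cre controls, 854 CPM in floxed controls and 844 CPM in the wild type, and its part in the level of Slc6a11 was not tested. The sum of 11 interneuron markers was at a median of 659 CPM in Egr1cKO mice. In the wild type, Cre controls and floxed controls it was at 593, 579 and 574 CPM. The sums overlapped between genotypes, at 518 to 696 CPM in Egr1cKO mice and 507 to 671 CPM in the others. The part of interneuron content in the levels of these genes was not tested.

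Slc12a5, the chloride exporter of mature neurons, was at 729, 666 and 632 CPM in female and 657, 627 and 616 CPM in male Egr1cKO mice. In the other 18 mice it ran from 527 to 676 CPM, which overlaps all but the highest knockout mouse. Its log2FC against these 18 was 0.16 (SE 0.05, edgeR adjusted p = 0.204). Slc12a2 was at 92.7 ± 12.0 CPM in Egr1cKO mice and 89.0 ± 12.5 CPM in floxed controls. Gabbr2 was at 354 ± 25.7 CPM in Egr1cKO mice and 314 ± 33.3 CPM in floxed controls, and Gabbr1 at 752 ± 61.8 and 721 ± 25.5 CPM. Of the scaffold genes, Gabarap was the only member beside Gabrd with a negative log2FC in all 3 comparisons of Egr1cKO mice. It was at 89.8 ± 6.80 CPM there, 103 ± 12.6 CPM in floxed controls and 103 ± 14.4 CPM in Cre controls. Gphn, Lhfpl4, which tethers GABA-A receptors to neuroligin, and Clptm1 had means in Egr1cKO mice within 1 SD of those in floxed controls. Nlgn2 was at 322 ± 24.4 CPM in Egr1cKO mice and 299 ± 25.6 CPM in floxed controls, and Iqsec3 at 287 ± 30.7 and 271 ± 31.3 CPM.

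Of the glycine receptor genes, Glra3 had the lowest p of the members against the 18 other mice. It was at 5.03, 6.64 and 5.72 CPM in female and 5.34, 4.23 and 19.4 CPM in male Egr1cKO mice. The wild type ran from 2.54 to 5.66 CPM, floxed controls from 2.77 to 5.66 CPM and Cre controls from 2.91 to 8.40 CPM. The highest knockout mouse and the highest Cre control are the libraries that stood apart. The log2FC was 0.93 (SE 0.24, edgeR adjusted p = 0.179), and it was 0.49 without that pair of libraries (edgeR adjusted p = 0.0807). Glrb was at 183 ± 14.6 CPM in Egr1cKO mice and 177 ± 9.55 CPM in floxed controls, and Glra2, an alpha subunit of immature neurons, at 9.48 ± 2.75 and 8.12 ± 1.13 CPM.

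**Figure D3:**
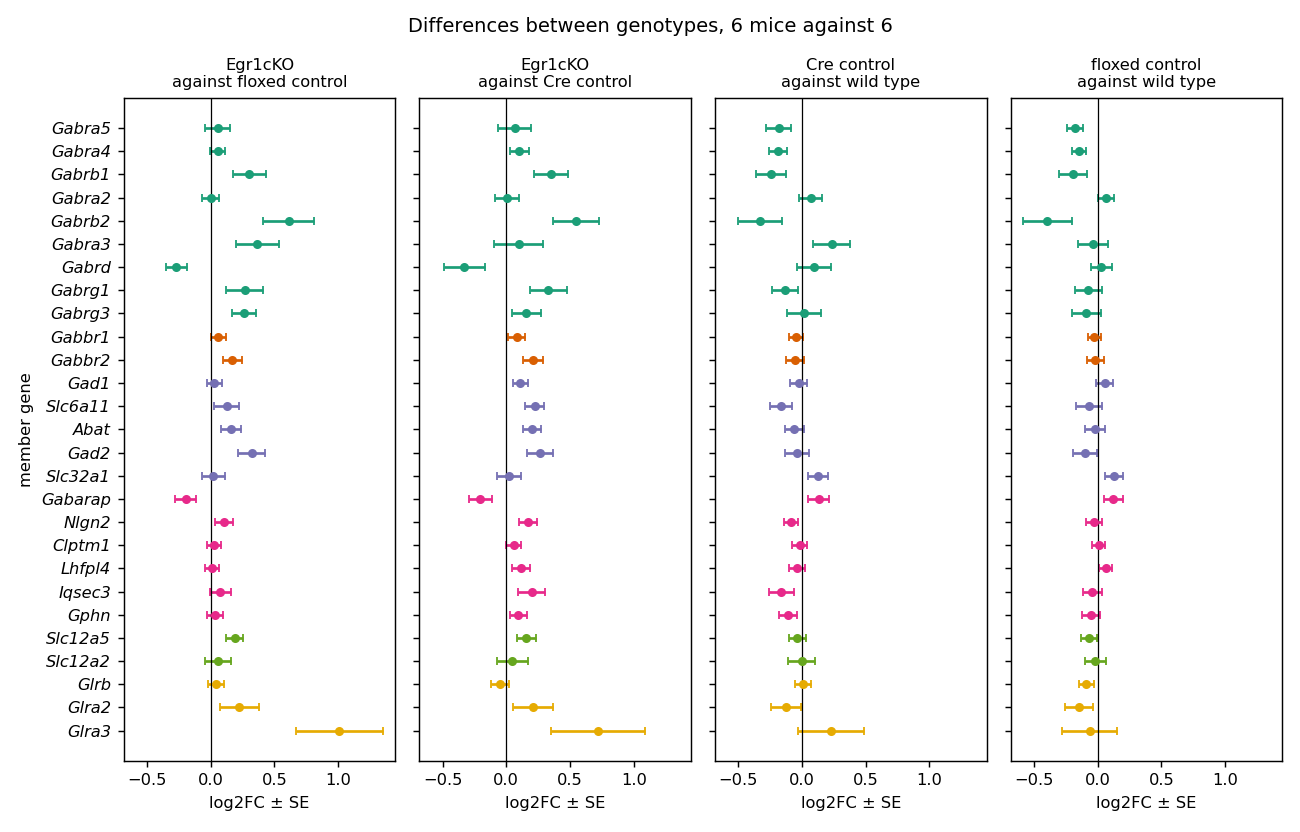
Log2 fold change of each member with its standard error (edgeR) in 4 comparisons of 6 mice with 6, coloured by role as in the plot of levels. Most members lie to the right of 0 in both Egr1cKO comparisons, with Gabrb2 at 0.61 and 0.55, and to the left in both comparisons of a single-allele control with the wild type, and no member was called.

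The next comparisons set mice with each allele alone against the wild type. The part of strain background was not tested. Wdfy1 is known to differ between C57BL/6J and C57BL/6N. It was at 30.8 CPM in Cre controls, 21.4 CPM in floxed controls and 18.9 CPM in the wild type. Its log2FC for Cre control against wild type was 0.71 (adjusted p = 0.0954 in edgeR, 1.1e-05 in DESeq2). Nnt, another such gene, was at 0.769, 0.562 and 0.922 CPM, low levels with SDs of 0.282, 0.474 and 0.511 CPM. The means in Egr1cKO mice were 26.9 CPM for Wdfy1 and 0.743 CPM for Nnt. Gabra2, also such a gene, had a log2FC of 0.07 in both comparisons. Between Cre control and wild type 0 of 27 members were called, beside 0% of 17167 genes, and DESeq2 called 0 members and 20 genes. One member, Gabra4, had an unadjusted p under 0.05, that is 1 of 27, beside 6.05% of all genes. It was at 108 ± 13.4 CPM in Cre controls and 123 ± 4.42 CPM in the wild type (log2FC -0.19, SE 0.07, edgeR adjusted p = 0.754). Gabrb1 and Slc6a11 followed, with a log2FC of -0.24 (SE 0.12) and -0.16 (SE 0.08) and the same edgeR adjusted p of 0.754. Without male Cre control replicate 2, Gabrb1 had a log2FC of -0.38 and was called, as was Gabrb2, among 229 genes called over the whole table. Between floxed control and wild type 0 of 27 members were called, beside 0% of 17393 genes, and DESeq2 called 0 members and 2 genes. At an unadjusted p under 0.05 there were 2 members, Gabra5 and Gabra4, both lower in floxed controls, beside 9.68% of all genes. Gabra5 was at 167 ± 15.6 CPM against 189 ± 7.98 CPM (log2FC -0.18, SE 0.06) and Gabra4 at 112 ± 6.29 CPM against 123 ± 4.42 CPM (log2FC -0.14, SE 0.05), each with an edgeR adjusted p of 0.515. Gabrb2 came next, with a log2FC of -0.39 (SE 0.19, edgeR adjusted p = 0.518). These comparisons share the wild-type mice. The 8 and 7 members with a positive log2FC in them stand beside 53.7% and 50.8% of all genes.

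The interaction of floxP and Nestin-Cre asks whether both alleles together differ from the sum of each alone, and its value is a difference of differences. In edgeR it called 0 of 27 members, beside 0.00543% of 18433 genes, and 11 members, 10 positive and 1 negative, had an unadjusted p under 0.05, beside 19.2% of all genes. Gabrb2 had an interaction of 0.95 (SE 0.29), Gabrb1 of 0.55 (SE 0.19) and Gabra4 of 0.25 (SE 0.09) on the log2 scale, with edgeR adjusted p of 0.150, 0.150 and 0.160. DESeq2 called 1 member, Gabrb1 (adjusted p = 0.0464), among 335 genes.

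Gabrb2 and several other members followed a property of the library that is not specific to them. A length index was computed for each mouse as the mean centred log2 level of 4771 protein-coding genes with at least 6000 bases of exon minus that of 1981 such genes with at most 2000 bases, leaving the members out. Gabrb2 rose with it over the 24 mice (Pearson r = 0.960, Spearman rho = 0.934). The permutation p of each was 1e-05, the smallest that 100000 draws can give, and that of r was 0.00013 when adjusted over 19742 genes. Without the 2 mice farthest from the median index r was 0.955, and with values centred on the 8 groups of sex and genotype it was 0.952. Gabrb1 had r = 0.922 (rho = 0.909) and Gabbr2 r = 0.805 (rho = 0.799). Gabarap, with 1844 exon bases the shortest member, had r = -0.911 (rho = -0.904). The permutation p of r was 1e-05 in these 3 as well. An r above 0.5 was found for 11 of 27 members, beside 14.1% of all genes kept. These genes were not matched to the members by exon length. For Gad1 r was 0.272, for Slc32a1 -0.369 and for Gabrd -0.382, with permutation p of 0.198, 0.0759 and 0.0666. These values share the libraries and their depth with the index.

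The median index was -0.13 in floxed controls, -0.10 in Cre controls, 0.05 in the wild type and 0.12 in Egr1cKO mice, with ranges that overlapped. With the index as a covariate, an alternative chosen after seeing the data, the interaction of Gabrb2 was 0.18 and that of Gabrb1 0.06. The log2FC of Gabrb2 was then 0.12 (SE 0.08) against the floxed control and 0.18 (SE 0.09) against the Cre control, and it changed sign between floxed control and wild type, to 0.016. That of Gad2 against the floxed control was 0.21 (SE 0.11). Not every difference became smaller. The size of the log2FC was smaller with the index in 15 of 27 members against the floxed control. It was smaller in 16 against the Cre control and in 18 against the 18 other mice. Among the rest, Gabra3 went from 0.37 to 0.53 against the floxed control and Gabrg1 from 0.33 to 0.45 against the Cre control. Against the 18 other mice the members with a positive log2FC went from 24 to 19, beside 50.8% of all genes, and those with an unadjusted p under 0.05 from 12 to 7, beside 7.42% of all genes. Against the floxed control the positive members went from 25 to 17, beside 48.9% of all genes, and those under 0.05 from 10 to 3, beside 5% of all genes. The median log2FC there was 0.08 without the index and 0.05 with it. Against the Cre control the positive members went from 24 to 22, beside 49.5% of all genes. Those under 0.05 went from 10 to 3 there, beside 5.59% of all genes. Between floxed control and wild type the positive members went from 7 to 17, beside 49.9% of all genes. In the interaction the median over the members went from 0.23 to 0.07 and the members under 0.05 from 11 to 1, beside 3.58% of all genes. The positive members there went from 23 to 22, beside 51.5% of all genes. No member was called with the index in any of the 8 comparisons. The share of mitochondrial counts was lowest, at 4.12%, in male Cre control replicate 2, the mouse with the highest index. What sets the index was not tested.

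**Figure D4:**
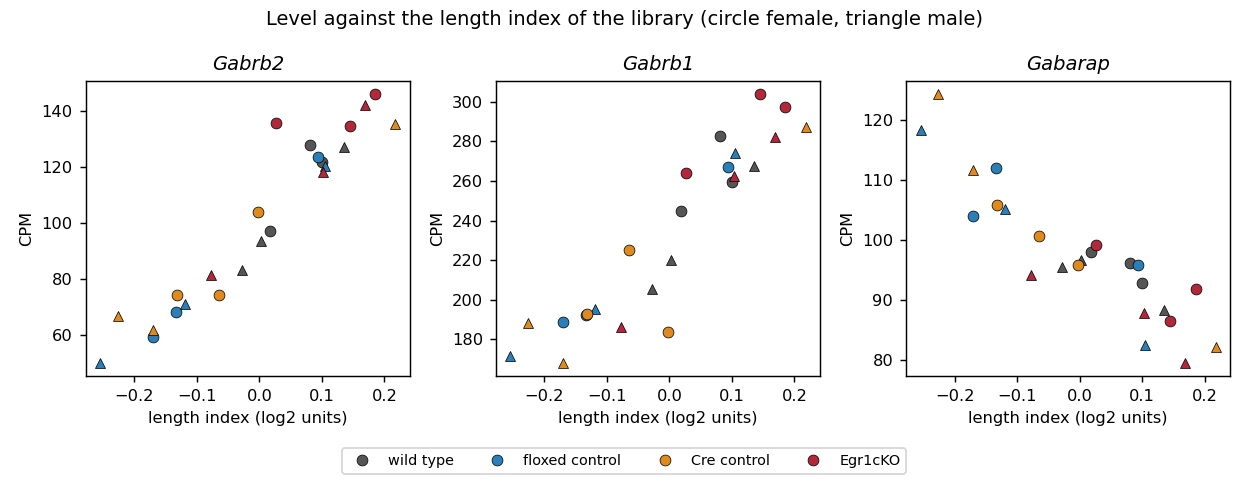
CPM of Gabrb2, Gabrb1 and Gabarap in each of the 24 mice against the length index of its library in log2 units, coloured by genotype, with circles for females and triangles for males. Gabrb2 (r = 0.960) and Gabrb1 (r = 0.922) climb and Gabarap (r = -0.911) declines along the index in mice of every genotype.

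Between 12 females and 12 males 0 of 27 members were called, beside 0.0701% of 17124 genes, and DESeq2 called 0 members. At an unadjusted p under 0.05 there were 2 of 27, beside 5.66% of all genes. Glra2, on the X chromosome, was at 8.06 ± 0.840 CPM in the 12 females, with 9.33 ± 2.04 CPM in the males (log2FC -0.21, SE 0.10, edgeR adjusted p = 0.840). The male mean includes male Egr1cKO replicate 3, a library that stood apart, at 14.8 CPM. Abat was at 243 ± 25.4 and 222 ± 23.1 CPM (log2FC 0.13, SE 0.06, edgeR adjusted p = 0.855), and Gad2 at 140 ± 19.1 and 126 ± 21.4 CPM (log2FC 0.15, SE 0.08, edgeR adjusted p = 0.917). The test of whether the sex difference in Egr1cKO mice departs from that in the other genotypes called 0 of 27 by edgeR and 0 by DESeq2, beside 0.00507% of 19742 genes. Gabrd alone, 1 of 27, had an unadjusted p under 0.05, beside 6.09% of all genes, with a difference of -0.41 (SE 0.19, edgeR adjusted p = 0.813) on the log2 scale. Glra3 had a difference of -0.97 (SE 0.49, edgeR adjusted p = 0.837), which was 0.06 without male Egr1cKO replicate 3, and Gabbr1 one of 0.14 (SE 0.09, edgeR adjusted p = 0.888).

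How the members of the GABA supply route varied together between mice was examined in 4 pairs, with permutation p adjusted over them. Gad1 and Gad2 rose together over 24 mice on the log2(CPM + 1) scale (r = 0.662, permutation p = 0.00037, adjusted 0.00148; rho = 0.677, permutation p = 0.00048, adjusted 0.00192). Within the 12 floxed mice r was 0.745 and within the 12 mice without floxP 0.612, and without the 2 mice farthest from the median of Gad1 it was 0.654. Gad1 and Slc32a1 had r = 0.450 (permutation p = 0.0270, adjusted 0.0540) and rho = 0.466 (permutation p = 0.0235, adjusted 0.0469). Within the floxed mice r was 0.185 and within the mice without floxP 0.580, and without the 2 farthest mice it was 0.357. Gad2 and Slc32a1 had r = 0.223 (permutation p = 0.294, adjusted 0.294) and rho = 0.308 (permutation p = 0.141, adjusted 0.188). Gabra4 and Gabrd, which assemble together in tonic receptors, had r = -0.308 (permutation p = 0.142, adjusted 0.189) and rho = -0.03 (permutation p = 0.882, adjusted 0.882), and r was -0.04 without the 2 farthest mice.

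Of 30 other genes of the pathway, 29 were found by symbol and 22 were tested in the first comparison. edgeR called 0 of them in each of the 8 comparisons. Against the 18 other mice 4 of the 22 had an unadjusted p under 0.05, all higher in Egr1cKO mice, near the 15.1% of all genes, and the median log2FC was 0.09. Kctd16, an auxiliary subunit of GABA-B receptors, was at 23.4 CPM in Egr1cKO mice and 15.3 CPM in the others on average (log2FC 0.61, SE 0.20, edgeR adjusted p = 0.204), and was chosen for naming after its values were seen. In the interaction DESeq2 called 2 of them, Trak1, a motor adaptor that belongs to a family binding GABA-A receptors, and Kctd12, another GABA-B auxiliary subunit, with adjusted p of 0.0438 and 0.0481. They were among 335 genes that DESeq2 called there over the whole table. Gabra6, a subunit of cerebellar granule cells, and Glra1, the glycine receptor subunit of the spinal cord, had means under 1 CPM.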

How the data were processed

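RNA of 24 hippocampi was sequenced from non-stranded libraries. The authors trimmed the reads with Trim Galore and mapped them with STAR to GRCm38 (mm10), and deposited raw counts per gene without normalization, 18025168 to 34955004 per mouse. Reads were counted per gene with STAR, and the annotation was not given in the sources used here. Symbols, positions and exon lengths came from GENCODE M21, which held 36493 of the 36605 genes and all 27 members. Promoter sequences are RefSeq's.

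The members and gene lists were chosen with earlier results of these data known. Counts were tested in R 4.3.3 with edgeR 4.0.16 (TMM, filterByExpr with a minimum count of 10, glmQLFit, glmQLFTest, Benjamini-Hochberg over all genes tested). Pairwise fits used the mice compared, with sex as a covariate, the interaction held floxP, Nestin-Cre and sex, the test of the sex difference used 8 group means, and the other fits had no covariate. The interaction was coded 0 and 1, which gives the same test as sum-to-zero coding. Standard errors were derived from each log2FC and its F statistic. CPM use TMM factors of 19742 genes. DESeq2 1.42.0, RLE size factors, no filter, no fold change minimum, other covariates, a shared fit, replicate blocks and mice left out were alternatives. Correlations used 100000 draws (Python 3.11.15). The edgeR fit was also run on counts simulated with known fold changes and independent draws. These held no shared trend such as the length index, so the check does not cover it. Each comparison names members by level, and with a fold change where called or among the 3 lowest p. No 2 mice of a group agreed within sampling noise, so each counted as 1 replicate. The labels do not say how the mice were raised together, so p-values measure the spread between these mice. Depth limits the precision of low members such as Glra3 most.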

Additional observations from a re-analysis of the deposited data

Results flagged for a closer look

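In each genotype the highest or the lowest of the 6 mice was compared with its nearest neighbour by Dixon's ratio, in 108 groups of members and genotypes. The ratio passed its critical value for 6 mice in 13, and chance would flag about 1 in 20 independent groups. The groups share the same mice and are not independent, and the ratio was not taken over other genes. Whether 13 is more than other genes would give was therefore not tested. Male Egr1cKO replicate 3 was far above the other Egr1cKO mice for Glra3 at 19.4 CPM (nearest 6.64 CPM) and Glra2 at 14.8 CPM (nearest 9.45 CPM), and far below them for Gabra5 at 123 CPM (nearest 174 CPM) and Gabrb1 at 186 CPM (nearest 263 CPM). Female Cre control replicate 1 was far from the other Cre controls in the same directions for Glra3, at 8.40 CPM (nearest 4.63 CPM), and Gabra5, at 109 CPM (nearest 167 CPM). These are the libraries with high striatal or choroid plexus markers and low Prox1, and the part of these tissues in the values was not tested. Female Egr1cKO replicate 1 was highest for Gabbr1 at 873 CPM (nearest 750 CPM), Nlgn2 at 369 CPM (nearest 319 CPM) and Lhfpl4 at 170 CPM (nearest 152 CPM). Single mice were highest for Gabra2 in the wild type (137 CPM, nearest 118 CPM), for Gphn in Cre controls (81.1 CPM, nearest 69.7 CPM) and, in floxed controls, for Slc32a1 (60.7 CPM, nearest 53.3 CPM) and Glrb (196 CPM, nearest 179 CPM).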

How the results depend on the processing

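With edgeR and the filter, members were called in none of the 8 comparisons, and the count stayed at 0 with RLE size factors, no fold change minimum, other covariates, shared fits, the replicate block, the length index and without both libraries that stood apart. Without a filter on low counts, edgeR called 5 members against the floxed control (Gabra3, Gabrb1, Gabrb2, Gad2 and Glra3), 3 against the Cre control (Gabrb1, Gabrb2 and Glra3), 1 between Cre control and wild type and 1 between floxed control and wild type (Gabrb2, lower), and 3 in the interaction (Gabrb1, Gabrb2 and Gad2), while DESeq2 called 1 there. With a mouse left out in turn the count ran from 0 to 1 against the floxed control, from 0 to 3 against the Cre control and from 0 to 2 between Cre control and wild type, with the calls made without male floxed control replicate 1 in the first and without male Cre control replicate 2 in the others. Calls over all genes rose in these fits too, with the counts given in the next paragraph. The member calls are therefore not read as a result about the members. The cause of these changes was not tested.

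Counts over all genes moved further. Egr1cKO against the other 3 genotypes called 1 gene, 42 with DESeq2, 7 without the filter, 3 with the replicate block, 3 with sex as a covariate, 7 with 8 group means, 218 without both libraries that stood apart and 1 to 215 with a mouse left out (215 without male Egr1cKO replicate 3, 8 without replicate 2 and 3 without replicate 1). Against the floxed control 4 became 79 with DESeq2, 808 without the filter, 9 with the replicate block, 7 in the shared fit and 2 to 304 with a mouse left out (304 without male floxed control replicate 1, 10 without male Egr1cKO replicate 2, 2 without female Egr1cKO replicate 1 or 3). Against the Cre control 1 became 30 with DESeq2, 529 without the filter, 4 in the shared fit and 1 to 794 with a mouse left out (794 without male Cre control replicate 2, 2 without male Egr1cKO replicate 2). Between Cre control and wild type 0 became 20 with DESeq2, 156 without the filter, 2 with the length index and 0 to 229 with a mouse left out (229 without male Cre control replicate 2, 1 without replicate 3). Between floxed control and wild type 0 became 2 with DESeq2, 163 without the filter and 0 to 1 with a mouse left out (1 without male floxed control replicate 1). The interaction went from 1 to 335 with DESeq2 and 1173 without the filter. The test of the sex difference in Egr1cKO mice went from 1 to 5 with DESeq2, 146 without the filter, 0 without both libraries that stood apart and 0 to 1 with an Egr1cKO mouse left out (1 only without male replicate 1).

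Of the log2FC of the 3 members with the lowest p in each comparison, 377 values under alternatives kept direction and call, 10 newly passed the threshold and 3 changed sign. Over all 27 members the length index alone changed the sign of 16 between floxed control and wild type, 8 against the floxed control, 7 in the interaction, 6 between Cre control and wild type, 5 against the 18 other mice, 2 against the Cre control and 1 between the sexes. The log2FC of Gabrb2 between floxed control and wild type was 0.016 with the length index. The sex difference of Glra3 was 0.24 without both libraries that stood apart and ran from -1.32 to 0.062 with an Egr1cKO mouse left out, the highest without male Egr1cKO replicate 3. The correlation of Gad1 and Gad2 in the 12 mice without floxP (r = 0.612) was no longer past the threshold, and that of Gad1 and Slc32a1 centred on group means (r = 0.532) newly was. Replicate numbers did not pair the mice. Same-numbered mice of a sex had correlations of -0.26 to 0.30 in their deviations (7 of 36 above 0.1). Pairs with different numbers ran from -0.41 to 0.45 (20 of 72 above 0.1), and 4 of 24 mice correlated best with their own number. A block of numbers within sex could not be fitted for the comparison of the sexes, where numbers over all genotypes gave 11 genes against 12.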
